A study of Mus musculus with 18 samples.

Results

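The genes described here are 10 that mark macrophages and dendritic cells in the gut wall, picked by symbol from the 55487 genes of the count tables: Cd68, Csf1r, Adgre1, C1qa, C1qb, C1qc, Lyz2, Itgax, Cx3cr1 and Mrc1. All 10 were found, and all 10 were among the 12645 protein-coding genes tested. They were followed in RNA-seq of whole-thickness ileum from 18 C57BL6/J littermate mice, 6 per genotype. All 18 mice carried the conditional transgene CAG-Ppara,-EGFP at the Col1a1 locus and received tamoxifen. Controls lacked Villin-CreERT2. IEC-Ppara mice had Villin-CreERT2 and were either heterozygous or homozygous for the transgene. Villin-CreERT2 is a tamoxifen-dependent Cre that acts in intestinal epithelial cells, so the transgene was switched on in the epithelium and not by design in the cells that express the genes described here. Tamoxifen was injected at 100 mg/kg on 3 days from 8 to 13 weeks of age, and ileum was taken 2 weeks after the last injection. Females numbered 3 of 6 controls, 2 of 6 heterozygous and 2 of 6 homozygous mice.

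Intestinal macrophages lie beneath the epithelium and in the muscle layer, where they take up bacteria and dying cells. Most are replaced from blood monocytes, and their survival depends on signals through the receptor encoded by Csf1r. Dendritic cells of the gut wall carry antigen to lymph nodes and share several surface molecules with macrophages. CD11c, encoded by Itgax, is one of these. Whole-thickness tissue mixes these cells with epithelium, muscle, stroma and lymphoid tissue. In such bulk samples fewer cells of a type and less RNA per cell cannot be told apart.

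Total gene counts per library ranged from 38528522 to 50376371, and every one of the 10 genes was counted in every library. The lowest count of any of them was 307, for Cd68 in control 6, where counting error alone is 5.71%. Ppara itself averaged 38.1 ± 8.40 CPM (a gene's reads scaled to the library total, SD, n = 6) in controls, 141 ± 35.4 in heterozygous and 216 ± 35.5 in homozygous mice. These counts do not separate the transgene from the mouse's own gene. Every control lay below every IEC-Ppara mouse, whereas heterozygous 6 (196 CPM) lay above homozygous 2 and 3 (both 184), and edgeR's adjusted p for homozygous vs. heterozygous mice was 0.485. B cell markers summed to 596, 473, 337 and 98.9 CPM in control 2, control 3, heterozygous 2 and homozygous 1, against 14.0 to 26.3 in the other 14 libraries. Several results are therefore also given without these 4 libraries.

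No difference between genotypes passed the test for any of the 10 genes. In homozygous mice vs. controls, 0 of 10 passed an adjusted p of 0.05 in edgeR's quasi-likelihood test, where 52 genes did, 0.411% of those tested, and 0 of 10 had an unadjusted p below 0.05, where 8.06% of genes did. In heterozygous mice vs. controls the counts were again 0 of 10 adjusted, against 0.293% of genes, and 0 of 10 unadjusted, against 5.29%. In homozygous vs. heterozygous mice they were 0 of 10 adjusted, against 0.00791%, and 0 of 10 unadjusted, against 7.61%. DESeq2's Wald test and limma-voom also called 0 of 10 in each of these comparisons. The CPM ranges of the genotypes overlapped for every gene in every pair of genotypes, 30 of 30. Of all genes tested 0.854%, 0.467% and 0.269% had ranges that did not overlap in these comparisons, so overlap was also the rule elsewhere.

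Every 95% interval of the fold changes included 0. Over the 10 genes the median log2 fold change was 0.08 in homozygous mice vs. controls, with 7 genes higher and 3 lower. It was -0.15 in heterozygous mice vs. controls, with 9 of 10 lower. It was 0.22 in homozygous vs. heterozygous mice, with 9 of 10 higher, and 0.34 with 10 of 10 higher without the 4 libraries rich in B cell markers. The median over all genes tested was between -0.006 and 0 in these comparisons. The 2 comparisons with controls share the control mice, and the 10 genes share cells and libraries, so the counts of genes in 1 direction are not counts of independent observations.

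**Figure D1:**
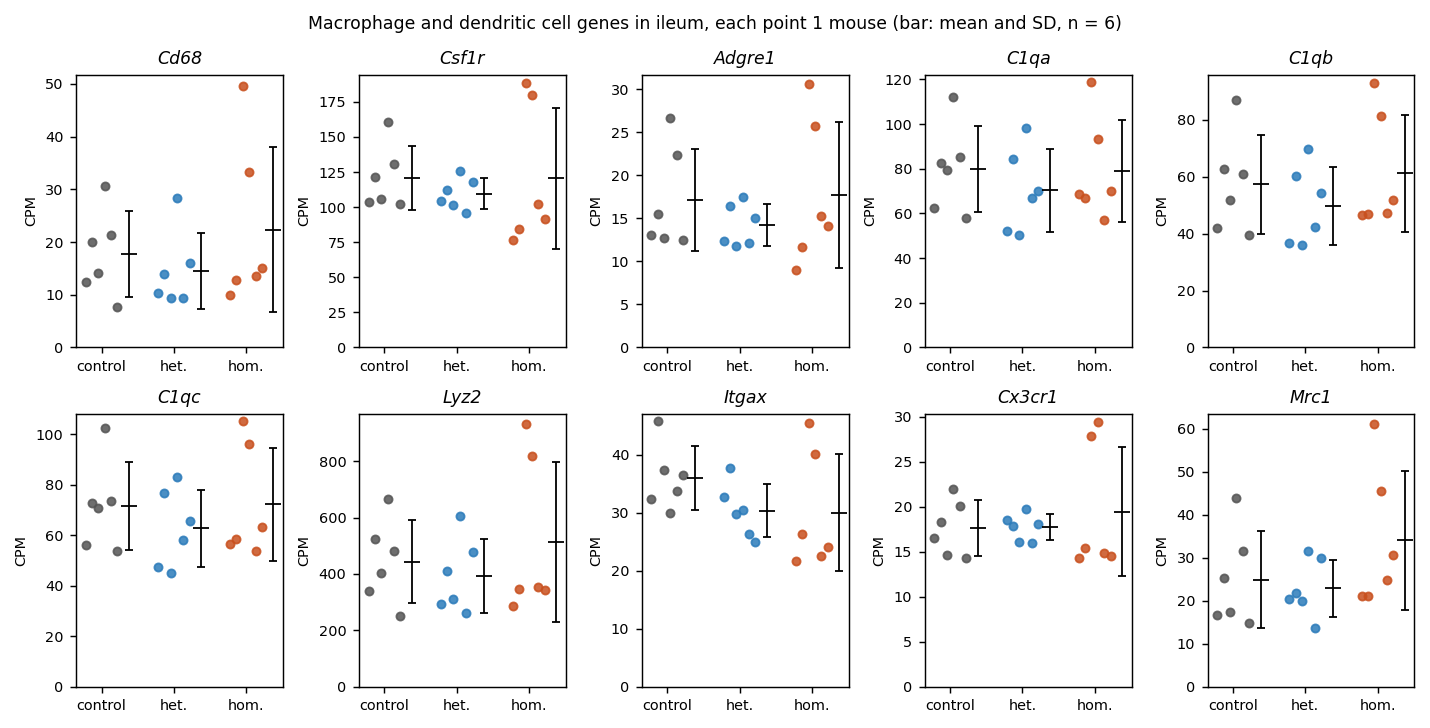
CPM of each of the 10 genes in every mouse, by genotype (control, heterozygous, homozygous, 6 mice each), with the mean and SD beside the points. In all 10 panels the same 2 homozygous mice, numbers 3 and 4, stand above the other 4, and control 4 is the highest control in all panels but Itgax.

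Cd68 encodes macrosialin, a glycoprotein of the lysosomes of macrophages, and it varied most. In controls its level ran from 7.74 CPM in control 6 through a median of 17.0 to 30.7 in control 4. In heterozygous mice it ran from 9.37 through 12.2 to 28.3, and in homozygous mice from 10.0 through 14.3 to 49.6. The homozygous range was set by homozygous 3 (49.6) and homozygous 4 (33.2), the only mice above the highest control, while the homozygous median lay below the control median. The log2 fold change in homozygous mice vs. controls was 0.34 (95% interval -0.47 to 1.15, edgeR adjusted p = 0.868). Without homozygous 3 it was -0.04, so that mouse decided the direction. In homozygous vs. heterozygous mice it was 0.58, and 0.88 without heterozygous 4, with an unadjusted p of 0.0346 and an edgeR adjusted p of 0.465.

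Csf1r encodes the receptor for the growth factors CSF1 and IL-34. It lies at chr18:61100598-61132149 on the plus strand of GRCm38. Its level was 121 ± 22.8 CPM in controls, 110 ± 11.2 in heterozygous and 121 ± 50.2 in homozygous mice (SD, n = 6). Homozygous mice fell on both sides of the controls: 2 lay above the highest control (161 CPM) and 3 below the lowest (102 CPM). The log2 fold change vs. controls was -0.00 in homozygous mice (95% interval -0.39 to 0.39) and -0.11 in heterozygous mice (95% interval -0.49 to 0.28). Exons of Hmgxb3 on the opposite strand cover 15.1% of the Csf1r exon length. The described library preparation has no step that marks strand, and how reads in that stretch were counted was not tested.

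Adgre1 encodes F4/80, the surface receptor used to identify mouse macrophages. It ranged from 12.5 to 26.7 CPM in controls (median 14.3), from 11.8 to 17.5 in heterozygous mice (median 13.7) and from 9.00 to 30.6 in homozygous mice (median 14.7). The medians were close and the homozygous range took in both others. Its log2 fold change was 0.05 in homozygous (95% interval -0.47 to 0.58) and -0.23 in heterozygous mice (95% interval -0.76 to 0.29) vs. controls.

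The 3 chains of C1q, the recognition molecule that starts the classical complement pathway, are encoded side by side on chromosome 4 and are made mainly by macrophages. On the minus strand of GRCm38 they lie at chr4:136880129-136886187 (C1qb), chr4:136889804-136893065 (C1qc) and chr4:136895917-136898803 (C1qa). C1qa was at 79.9 ± 19.3 CPM in controls, 70.3 ± 18.5 in heterozygous and 79.1 ± 22.8 in homozygous mice. C1qb was at 57.3 ± 17.3, 49.8 ± 13.8 and 61.2 ± 20.6 CPM, and C1qc at 71.6 ± 17.4, 62.7 ± 15.4 and 72.3 ± 22.4 CPM in the same order (SD, n = 6). The largest of their 6 log2 fold changes vs. controls in size was -0.17 for C1qb in heterozygous mice (95% interval -0.60 to 0.27).

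The chains kept nearly fixed proportions while their sum moved. C1qa gave 38.1% ± 1.35 of the C1q counts, C1qb 27.7% ± 1.39 and C1qc 34.3% ± 0.811 (SD, n = 18). The share of C1qa ran from 34.4% to 39.9% over the 18 mice, and that of C1qb from 25.3% to 30.0%. Between genotypes the mean share of C1qa was 38.4%, 38.5% and 37.4% in controls, heterozygous and homozygous mice. Per kilobase of exon, C1qa made up 45.9%, C1qb 31.9% and C1qc 22.2%.

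Stretches before the start sites of C1qb, C1qc and Mrc1 are printed from RefSeq on GRCm38.p6 because they hold letters that were searched for. The windows around the start sites were searched for the letters GAGGAA on either strand (TTCCTC on the other), the purine-rich box that the myeloid factor PU.1 is known to bind, and matches are in capitals. The C1qb stretch is the 90 bases before the RefSeq start, chr4:136886201-136886290, minus strand. The C1qc stretch is chr4:136893066-136893141, minus strand, and the Mrc1 stretch chr2:14229224-14229313, plus strand.
C1qb: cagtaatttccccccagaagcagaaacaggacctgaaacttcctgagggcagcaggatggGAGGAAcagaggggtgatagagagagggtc
C1qc: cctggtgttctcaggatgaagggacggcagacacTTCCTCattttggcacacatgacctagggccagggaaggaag
Mrc1: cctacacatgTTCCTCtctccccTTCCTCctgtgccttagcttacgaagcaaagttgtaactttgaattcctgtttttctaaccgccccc

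Windows of 300 bases (250 before and 50 after the start) were held for 7 of the 10 genes: C1qb, C1qc, Cd68, Cx3cr1, Itgax, Lyz2 and Mrc1. The letters were in 4 of these 7 windows, those of C1qb, C1qc, Cd68 and Mrc1, and in 28.3% of all 32851 windows. In Mrc1 they began at -180, -167 and -35 from the start, in C1qb at -30 and in C1qc at -193. A match is a description of letters and does not show binding.

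Lyz2 encodes lysozyme M, the bactericidal enzyme of macrophages, monocytes and neutrophils, and was the most abundant of the 10 genes. Controls ran from 249 through a median of 442 to 665 CPM, heterozygous mice from 261 through 360.0 to 606 and homozygous mice from 285 through 349.8 to 933. Homozygous 3 (933) and homozygous 4 (817) were above every other mouse, and the other 4 homozygous mice, from 285 to 353, lay within the control range. The log2 fold change vs. controls was 0.21 (95% interval -0.40 to 0.83, edgeR adjusted p = 0.902) in homozygous and -0.14 (95% interval -0.75 to 0.47) in heterozygous mice. Without homozygous 3 it was -0.03 in homozygous mice.

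Lyz1, which lies beside Lyz2 on chromosome 10, encodes lysozyme P of the Paneth cells at the crypt base. Its level was 6628 ± 924 CPM in controls, 7489.9 ± 684 in heterozygous and 5833 ± 813 in homozygous mice. The count ratio of Lyz1 to Lyz2 ran from 4.63 in homozygous 3 to 25.8 in heterozygous 5. The transcripts are 96.0% identical over their aligned bases. Of the 50-base words of the Lyz2 transcript 15.4% occur in Lyz1, of its 100-base words 1.97%, and of its 150-base words, the read length, 0%. The lowest Lyz1 level and the highest Lyz2 level were in the same mouse, homozygous 3. Whether Lyz1 reads were counted on Lyz2 was not tested.

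The genes resemble each other before their starts as well. In the RefSeq windows the 90 bases from -140 to -51 differ at 13 positions, shown in capitals, at chr10:117282323-117282412 for Lyz2 and chr10:117292919-117293008 for Lyz1, both on the minus strand.
Lyz2: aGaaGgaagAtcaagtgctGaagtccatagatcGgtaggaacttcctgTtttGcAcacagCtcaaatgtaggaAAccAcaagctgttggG
Lyz1: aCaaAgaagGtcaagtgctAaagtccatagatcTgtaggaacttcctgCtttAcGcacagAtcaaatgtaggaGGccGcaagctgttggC

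Cx3cr1 encodes the receptor for fractalkine and marks the resident macrophages of the lamina propria. It was the steadiest of the macrophage genes outside the homozygous group, at 17.6 ± 3.08 CPM in controls and 17.7 ± 1.44 in heterozygous mice, and it was at 19.4 ± 7.17 in homozygous mice (SD, n = 6). Of the 6 homozygous mice 2 lay above every heterozygous mouse, at 27.8 and 29.4 CPM, and 4 below every one, at 15.4 or less. The log2 fold change vs. controls was 0.14 (95% interval -0.21 to 0.49) in homozygous and 0.04 (95% interval -0.31 to 0.39) in heterozygous mice.

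Mrc1 encodes the mannose receptor CD206, which takes up glycoproteins and is typical of tissue-resident macrophages. It ran from 14.7 through a median of 21.3 to 43.8 CPM in controls, from 13.7 through 21.1 to 31.6 in heterozygous and from 21.1 through 27.6 to 61.1 in homozygous mice. Its lowest homozygous mouse was near the median of both other groups, and again homozygous 3 (61.1) and 4 (45.4) were above the highest control. The log2 fold change was 0.46 (SE 0.28, 95% interval -0.14 to 1.06, edgeR adjusted p = 0.705) vs. controls and 0.54 (SE 0.28, 95% interval -0.06 to 1.14, adjusted p = 0.642) vs. heterozygous mice. Without control 4, the highest control, the first was 0.68 with an unadjusted p of 0.0247 and an adjusted p of 0.41. The second was 0.64 to 0.65 without heterozygous 4, homozygous 1 or homozygous 2, with unadjusted p of 0.0391 to 0.0445 and adjusted p of 0.462 to 0.564. No other setting gave Mrc1 an unadjusted p below 0.05 between genotypes, and leaving out homozygous 3 or 4, its highest mice, did not.

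Itgax encodes the integrin alpha chain CD11c of dendritic cells, found also on gut macrophages and some lymphocytes. Its estimates were the lowest of the 10 in homozygous mice vs. controls. Controls ran from 29.9 through a median of 35.2 to 45.8 CPM, heterozygous mice from 24.9 through 30.1 to 37.7 and homozygous mice from 21.7 through 25.2 to 45.4. Of the 6 homozygous mice 4 were below the lowest control, at 21.7 to 26.3 CPM, and the other 2, homozygous 3 (45.4) and 4 (40.1), were among the 3 highest of all 18. The log2 fold change was -0.27 (SE 0.16, 95% interval -0.61 to 0.08, edgeR adjusted p = 0.705) in homozygous and -0.22 (SE 0.16, 95% interval -0.56 to 0.12, adjusted p = 1.00) in heterozygous mice vs. controls. Without homozygous 3 the first was -0.40 with an unadjusted p of 0.014 and an adjusted p of 0.626, and without homozygous 4 it was -0.36 with an unadjusted p of 0.0408 and an adjusted p of 0.69. Without the 4 libraries rich in B cell markers it was -0.08, and the estimate in homozygous vs. heterozygous mice turned from -0.05 to 0.09. Controls 2 and 3 and heterozygous 2, with high B cell markers, were the highest, second highest and highest mice of their groups for Itgax, whereas homozygous 1 was the lowest of all 18.

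**Figure D2:**
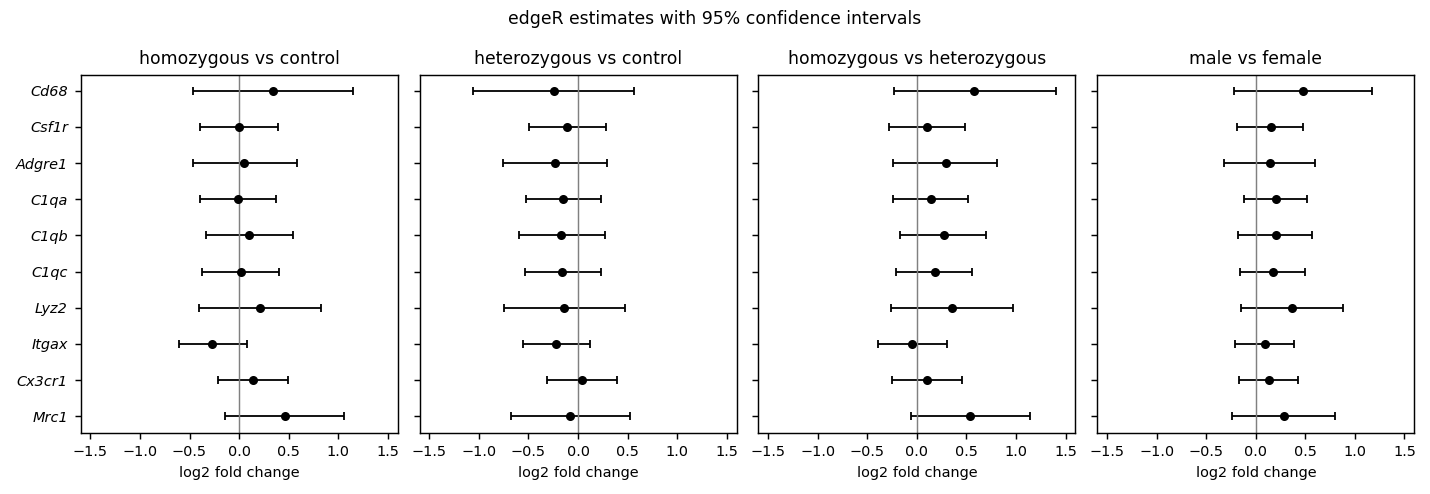
edgeR log2 fold changes (points) of the 10 genes with 95% confidence intervals (bars) for 3 comparisons of genotypes and for male vs. female mice with genotype in the model. Every interval includes 0. Those of Cd68, Lyz2 and Mrc1 are the widest.

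None of the 10 genes passed the test by sex. With genotype in the model all 10 point estimates were higher in the 11 males than in the 7 females, with a median log2 fold change of 0.18 against 0.002 over all genes. This median was 0.42 without the 4 libraries rich in B cell markers. The estimates ran from 0.09 for Itgax (95% interval -0.21 to 0.38) to 0.48 for Cd68 (95% interval -0.22 to 1.17). In edgeR 0 of 10 passed the adjusted threshold, against 0.0554% of genes, and 0 of 10 had an unadjusted p below 0.05, against 3.39%. Without control 4, a female with high levels, 5 of 10 had an unadjusted p below 0.05 (Cd68, C1qa, C1qb, Lyz2 and Mrc1), against 6.65% of genes in the same fit, with adjusted p of 0.721 or more.

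Compared per kilobase of exon, the order of levels over the 18 mice was led by Lyz2 at 342 ± 148 CPM per kb (SD, n = 18). C1qa (73.5 ± 18.8), C1qb (51.6 ± 15.7) and C1qc (35.7 ± 9.35) followed, then Csf1r (20.3 ± 5.36) and Cd68 (14.5 ± 8.65). Itgax (6.68 ± 1.52), Adgre1 (5.06 ± 1.85), Mrc1 (4.28 ± 1.93) and Cx3cr1 (4.05 ± 0.974) were lowest. From Csf1r down, each gene differed from the next by less than the larger of their SDs, whereas from Lyz2 to Csf1r each step was larger than that. Lyz2 was above 99.2% of the genes tested on this scale, C1qa above 95.3% and Cx3cr1 above 38.3%.

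The spread between mice of 1 genotype was large for these genes. The SD of log2 CPM within genotypes was 0.75 for Cd68, 0.58 for Lyz2, 0.57 for Mrc1 and 0.49 for Adgre1, and ran from 0.31 to 0.42 for the others. The median of the 10 was 0.40, against 0.19 over all genes tested. Among the 1000 genes of nearest mean level, the spread of Cd68 exceeded 98.3%, that of Lyz2 98.2%, that of Csf1r 96.9% and that of Cx3cr1, the lowest of the 10 by this measure, 84.1%. Differences between genotype means made up 1.4% (Cx3cr1) to 17.7% (Itgax) of the variance in log2 CPM, with a median of 6.3% over the 10 and 10.2% over all genes, where groups that are alike give 11.8% on average.

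**Figure D3:**
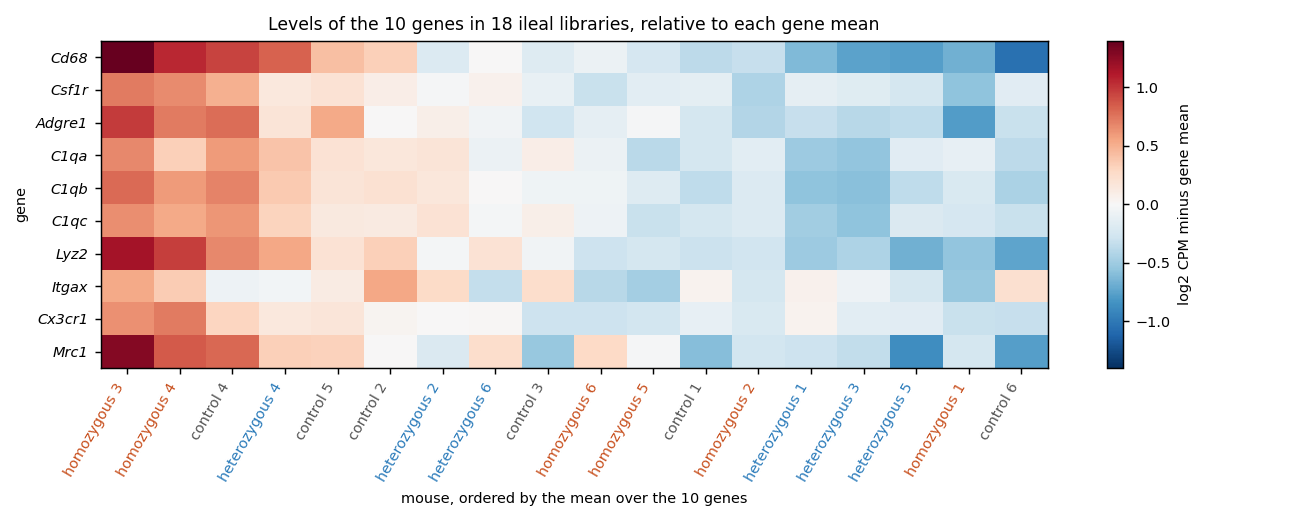
Colour shows log2 CPM of each gene (rows) in each mouse (columns) minus the mean of that gene, red above and blue below, with mice ordered by the mean over the 10 genes and their labels coloured by genotype. The 3 genotypes are mixed along the order. Homozygous 3 and 4 hold the first 2 places, control 6 the last and homozygous 1 the place before it.

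The same few mice were highest for most of the 10 genes. Homozygous 3 was the highest of 18 for 8 of the 10 genes and homozygous 4 for 1, Cx3cr1, and both were among the 4 highest for all 10. Control 4 was among the 4 highest for 9 and heterozygous 4 for 6. The summed level of the 10 genes was 1653, 1442, 1281 and 1110 CPM in these 4 mice and 588 to 988 CPM in the other 14. At the low end, control 6, heterozygous 3 and homozygous 1 were each the lowest mouse for 3 genes. By genotype the sums were 886 ± 246 CPM in controls, 785 ± 202 in heterozygous and 969 ± 454 in homozygous mice (SD, n = 6).

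Neither depth nor the mitochondrial share moved with the mean of the 10 genes over the 18 libraries (Pearson r = -0.16 and -0.13). The mitochondrial share of counts ran from 2.41% to 3.14%. These and all correlations here are descriptions over libraries that share the dissection and the depth, with no p.

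The genes other than Itgax varied together between mice. With genotype means removed, Pearson r of log2 CPM over 18 libraries was 0.74 to 0.99 in the 36 pairs without Itgax, with a median of 0.90. The C1q chains gave 0.97 to 0.99, and Cd68 with Lyz2 0.98. Csf1r gave 0.96 with both Adgre1 and Cx3cr1, but 0.75 with C1qa. Without homozygous 3 and 4, the mice farthest from the median, r on log2 CPM was 0.62 to 0.99 in these pairs, with a median of 0.80.

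Itgax was set apart from the other 9. Its r with them was 0.42 (Mrc1) to 0.67 (Cx3cr1), and without homozygous 3 and 4 it was -0.15 to 0.46 on log2 CPM. Within the 6 controls it was negative with each of them, from -0.10 (Lyz2) to -0.47 (Adgre1), and within the 6 heterozygous mice it was 0.01 to 0.29. Within the 6 homozygous mice it was 0.92 to 0.99. Control 4, the highest control for the other 9 genes, was the lowest for Itgax, whereas homozygous 3 and 4 were the highest of their group for all 10. The difference between genotypes in these correlations was not tested. Without the 4 libraries rich in B cell markers, r of Itgax with the other genes was 0.38 to 0.71.

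**Figure D4:**
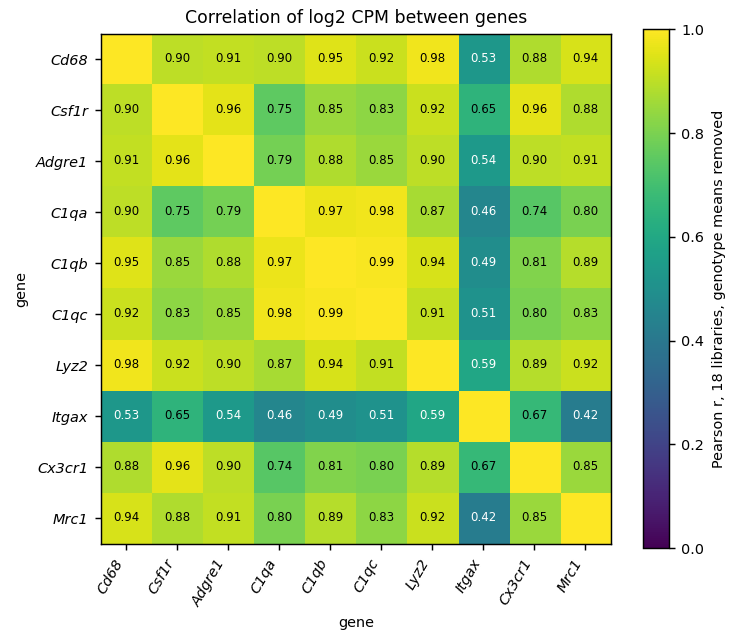
Pearson r between each pair of the 10 genes over 18 libraries, on log2 CPM with genotype means removed, written in each cell and shown by colour from 0 to 1. The row and column of Itgax, at 0.42 to 0.67, stand out from the rest, at 0.74 to 0.99.

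Ratios within a library do not depend on its scaling. For Itgax counts against the sum of the C1q counts, controls had a log2 ratio of -2.51 ± 0.46, heterozygous mice -2.56 ± 0.40 and homozygous mice -2.83 ± 0.11 (SD, n = 6). It ran from -3.33 to -2.05 in controls and only from -2.99 to -2.71 in homozygous mice, inside the control range. That of Mrc1 was -3.15 ± 0.31, -3.01 ± 0.38 and -2.71 ± 0.26 in the same order, with overlapping ranges. For Cd68 it was -3.66 ± 0.37, -3.73 ± 0.35 and -3.45 ± 0.52, and its highest values were in homozygous 3 (-2.68) and 4 (-3.03). Those for Lyz2 (1.06, 1.08 and 1.15) and Cx3cr1 (-3.55, -3.33 and -3.48) differed between genotypes by less than the SD of the groups with the larger spread.

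Of the other genes tested, 123 of 12635 had an r above 0.9 with the mean of the 10 genes, genotype means removed. The 10 most alike were Pirb (r = 0.978), Slc11a1, Vsir, Crtap, Snx10, Nfam1, Tnfrsf1b, Igsf6, Sirpa and Fcer1g (0.961). Several are known from myeloid cells: Pirb is an inhibitory receptor, Slc11a1 a metal transporter of phagosomes, Sirpa the receptor for CD47 and Fcer1g the signalling chain of Fc receptors.

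The nearest genes differed from member to member. Cd68 was most like Ctsl and Anxa3 (r = 0.975 and 0.972), and Lyz2 most like Anxa3, Sirpa and Cmklr1 (0.97 each). Csf1r, Adgre1 and Cx3cr1 had Slc11a1 among their nearest 3 (0.976, 0.968 and 0.939), with Vsir and Tnfrsf1b for Csf1r, Tbc1d2b and Tlr8 for Adgre1, and Adgre4 and Vsir for Cx3cr1. The C1q chains had Fcer1g (0.953, 0.962 and 0.969 for C1qa, C1qb and C1qc). C1qa was also near Tspo and Bscl2, C1qb near Apoe and Pld3, and C1qc near Ctsl and Pld3. Apoe encodes the lipid carrier apolipoprotein E.

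Mrc1 and Itgax had other neighbours. Mrc1 was most like Fstl1, Adamts2 and Fbln2 (0.976, 0.975 and 0.974), genes known for secreted products of stromal cells. Itgax was most like Spn, Lcp2 and Mefv (0.879, 0.836 and 0.833). Spn encodes the leukocyte sialoglycoprotein CD43 and Lcp2 the adaptor SLP-76, and both are used in T cells.

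Ligands and partners of the 10 genes were measured beside them. Csf1, a ligand of the Csf1r receptor, ran from 21.3 CPM in heterozygous 5 to 58.0 in homozygous 3 and followed the mean of the 10 genes (r = 0.92). Il34, the other ligand, had an r of 0.37, and its log2 fold change in homozygous mice vs. controls was 0.02 (SE 0.14). Cx3cl1, which encodes fractalkine, the ligand of Cx3cr1, went the other way over the libraries (r = -0.50), at 114 to 163 CPM. Itgb2 encodes CD18, the beta chain that pairs with CD11c, and had an r of 0.96 with the mean of the 10 genes. In this list of growth factors and partners 13 of 15 genes were tested, and 0 passed the adjusted threshold or an unadjusted p of 0.05 in any of the 3 genotype comparisons. Their median log2 fold change was 0.04 in homozygous and -0.18 in heterozygous mice vs. controls. The largest estimate in homozygous mice was 0.58 for Csf3r (SE 0.40) and the smallest -0.34 for Il10ra (SE 0.26).

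Among 25 tested genes of other mononuclear phagocyte markers, 0 passed the adjusted threshold in each genotype comparison. In homozygous mice vs. controls 16 were higher and 9 lower, with a median of 0.15, from 0.90 for Cd163 (SE 0.58) to -0.24 for Irf8 (SE 0.11, unadjusted p = 0.0465, edgeR adjusted p = 0.615). In heterozygous mice 22 of 25 were lower, with a median of -0.13. Without the 4 libraries rich in B cell markers 19 of 25 were higher in homozygous mice vs. controls (median 0.23). In heterozygous mice vs. controls 21 of 25 were then lower (median -0.2). Cd14, the co-receptor for bacterial lipopolysaccharide, was at 0.87 in homozygous mice vs. controls (SE 0.36, unadjusted p = 0.0241, edgeR adjusted p = 0.552). Spi1, which encodes PU.1, was at 0.05 (SE 0.22) in the same comparison. Mertk, the receptor for dying cells, went against the mean of the 10 genes over the libraries (r = -0.67), whereas Itgam, which encodes CD11b, followed it (0.87). As a list these markers followed the 10 genes closely (r = 0.97).

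The genes of tissue-resident macrophages, 14 of them tested, had 12 higher and 2 lower estimates in homozygous mice vs. controls, with a median of 0.32, and 0 passed the adjusted threshold. They ran from 1.43 for Cbr2 (SE 0.85) to -0.70 for Cd4 (SE 0.18, edgeR adjusted p = 0.151), which T cells also express. Lyve1, shared with lymphatic endothelium, was at 0.42 (SE 0.18, edgeR adjusted p = 0.585). In heterozygous mice the median was -0.05, with 7 of 14 lower. Monocyte and recruitment genes had 8 of 11 higher in homozygous mice vs. controls, with the highest estimate, 1.50, for S100a9 (SE 1.20) and 0 adjusted calls, while in heterozygous mice 8 of 11 were lower (median -0.13). Ccr2, the receptor that brings monocytes into tissue, was at 0.25 (SE 0.35) in homozygous mice vs. controls and followed the 10 genes with an r of 0.91.

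Complement genes outside C1q had 13 of 15 higher in homozygous mice vs. controls (median 0.32), from 0.78 for C3 (SE 0.89) to -0.84 for Cfi (SE 0.29, edgeR adjusted p = 0.407), and 0 adjusted calls. In heterozygous mice 12 of 15 were lower (median -0.16). Homozygous 3 and 4 had the highest mean centred log2 CPM over this list (1.03 and 0.81). The other homozygous mice lay at -0.26 to -0.01, where controls ran from -0.71 to 0.74. C1ra and C1s1, which encode the proteases that C1q activates, were at 0.39 (SE 0.31) and 0.28 (SE 0.33) in homozygous mice vs. controls, and followed the 10 genes with r of 0.94 and 0.92. Lysosome and phagocytosis genes had 13 of 20 higher (median 0.08), from 0.72 for Cd36 (SE 0.70) to -0.49 for Laptm5 (SE 0.33), and 0 adjusted calls, while in heterozygous mice 13 of 20 were lower (median -0.01). Without the 4 libraries rich in B cell markers 10 of 20 were lower in heterozygous mice vs. controls (median 0). Lipa, the lysosomal acid lipase, was at 0.30 (SE 0.11) in both homozygous and heterozygous mice vs. controls, with adjusted p of 0.492 and 0.732. As a list they followed the 10 genes (r = 0.97).

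The dendritic cell genes did not follow the macrophage genes as closely. Of 16 tested 13 were lower in homozygous mice vs. controls, with a median log2 fold change of -0.49, and 7 had an unadjusted p below 0.05, all lower, where 4.03% of all genes were lower with such a p. None passed the adjusted threshold. In heterozygous mice vs. controls 15 of 16 were lower, with a median of -0.34. Without the 4 libraries rich in B cell markers 11 of 15 were lower in that comparison, with a median of -0.12. The 7 with such a p in homozygous mice were Flt3, Itgae, Irf4, Ccr9, Cd8a, Cd7 and Wdfy4, of which Itgae, Ccr9, Cd8a and Cd7 are also expressed by intestinal T cells. Flt3, Irf4, Ccr9, Cd8a and Wdfy4 were highest in control 2, the library with the most B cell marker RNA, and Itgae and Cd7 in control 6. In control 2 Wdfy4 was at 94.3 CPM and Irf4 at 20.7, against at most 27.7 and 10.3 in homozygous mice. The lowest estimate in homozygous mice was that of Wdfy4 at -1.03 (SE 0.39, edgeR adjusted p = 0.482) and the highest that of Clec10a at 0.25 (SE 0.57). Flt3, the growth factor receptor of dendritic cells, was at -0.71 (SE 0.29), while Zbtb46, a transcription factor of classical dendritic cells, was at -0.00 (SE 0.22).

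Lymphocyte markers moved with this list. Over 18 libraries its r was 0.84 with the B cell list and 0.92 with the T cell list, and over the 14 without the libraries rich in B cell markers 0.62 and 0.68. Of its 16 tested genes 7 were highest in control 2, which had the most B cell RNA, 4 in homozygous 3 and 5 in other mice. Of the 10 T cell markers 4 passed the filter, and all 4 had lower estimates in homozygous mice vs. controls (median -0.96). All 4 had an unadjusted p below 0.05 in edgeR, against 4.03% of genes that were lower with such a p. Cd6, 1 of the 4, was at most 2.28 CPM in homozygous mice. It therefore passed the filter of 3 CPM only through the other genotypes, and its lower estimate gives no support. Over the 14 libraries 3 of 3 tested T cell markers were lower with such a p (median -0.66), against 2.93% of genes. Adjusted calls numbered 0 in both fits. In heterozygous mice vs. controls T cell markers were also 4 of 4 lower (median -0.70), 3 of them with such a p, against 2.53% of genes. Without the 4 libraries rich in B cell markers 9 of 15 dendritic cell genes were lower in homozygous mice vs. controls, with a median of -0.13, and 4 had an unadjusted p below 0.05, all lower, against 2.93% of genes. The part of lymphocytes in these values was not tested. The same exclusion left the 10 genes at 9 of 10 higher in homozygous mice vs. controls, with a median of 0.12 and 0 calls. The dendritic list had an r of 0.43 with the mean of the 10 genes over 18 libraries, and 0.79 over the 14. With Itgax alone it was 0.73 over 18 and 0.71 over the 14, so the order of the 2 turned round. The defining markers Xcr1 and Cd209a were at or below 3.315 CPM in every library.

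**Figure D5:**
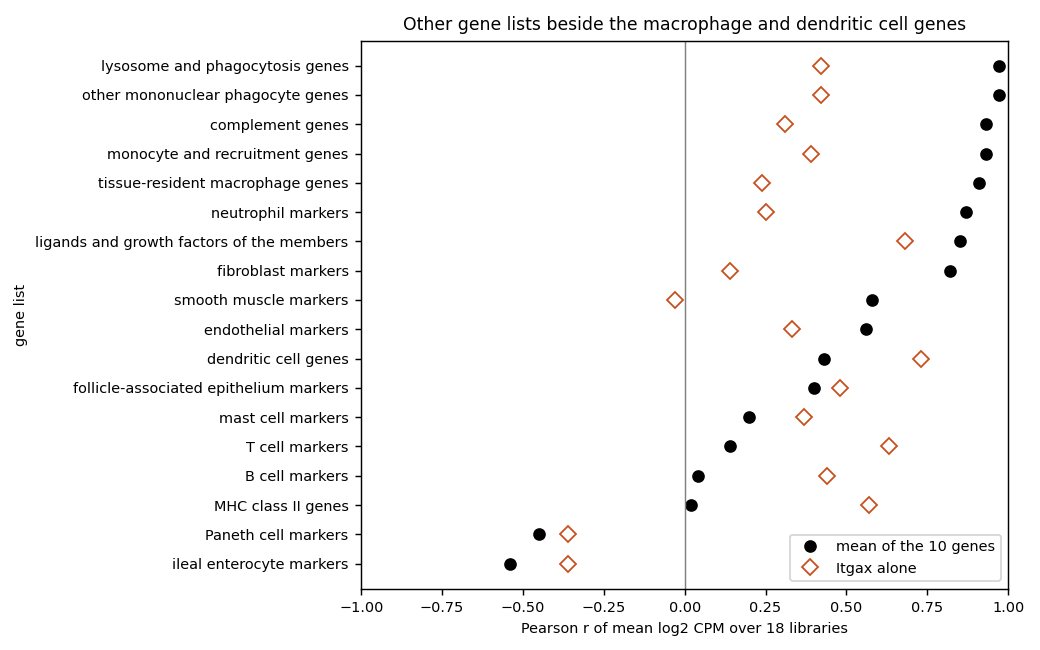
Pearson r over 18 libraries between each gene list (mean centred log2 CPM of its genes) and the mean of the 10 genes (filled circles) or Itgax alone (open diamonds). Phagocyte, lysosome, complement, monocyte and fibroblast lists lie high for the 10 genes, and T cell and MHC class II lists lie higher for Itgax than for the 10 genes, as does the dendritic cell list over these 18 libraries but not over the 14 without those rich in B cell markers.

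Markers of other cells in the gut wall moved with the 10 genes to different degrees. Fibroblast markers had an r of 0.82 and ran from 1096 to 3912 CPM, with homozygous 3 highest and control 4 second. Smooth muscle markers had an r of 0.58 and ran from 705 CPM in control 6 and 876 in heterozygous 3 to 10539 in homozygous 3. All 10 smooth muscle and all 10 fibroblast markers had higher estimates in homozygous mice vs. controls, with medians of 0.57 and 0.35 and 0 adjusted calls. In heterozygous mice vs. controls 10 of 10 smooth muscle markers (median -0.19) and 7 of 10 fibroblast markers (median -0.08) were lower. Over the 14 libraries 8 of 10 fibroblast markers were higher in homozygous mice vs. controls (median 0.31), and 9 of 10 were lower in heterozygous mice vs. controls (median -0.2). Ileal enterocyte markers went the other way (r = -0.54), with the lowest sum, 21022 CPM, in homozygous 3. Endothelial markers had an r of 0.56 and follicle-associated epithelium markers 0.40, which became 0.83 without the 4 libraries rich in B cell markers. Neutrophil markers had an r of 0.87 but were scarce, summing to 24.9 CPM in homozygous 3 and at most 15.2 in the others, and Ly6g was at most 0.182 CPM.

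The r with the mean of the 10 genes was 0.04 for B cell, 0.14 for T cell, 0.20 for mast cell and 0.02 for MHC class II lists. Over the 14 libraries it was 0.52 for B cell markers, 0.24 for T cell markers and 0.04 for MHC class II genes. Paneth cell markers had an r of -0.45 that became 0.26 without homozygous 3 and 4. With Itgax alone the r was 0.63 for T cell markers, 0.57 for MHC class II genes and 0.44 for B cell markers. MHC class II genes, which present antigen on macrophages, dendritic cells and B cells, had 10 of 10 lower estimates in homozygous mice vs. controls (median -0.92), all with an unadjusted p below 0.05, against 4.03% of genes, and 0 adjusted calls. In heterozygous mice vs. controls 10 of 10 were lower as well (median -0.74). H2-Oa, 1 of the 10, averaged 4.07 CPM in controls, 1.51 in heterozygous and 1.01 in homozygous mice. It passed the filter only with the 4 libraries rich in B cell markers, so its lower estimates give no support. Without the 4 libraries rich in B cell markers 9 of 9 were lower in both comparisons, with medians of -0.61 in homozygous and -0.59 in heterozygous mice, and in homozygous mice 8 had an unadjusted p below 0.05, against 2.93% of genes. Lymphocyte markers moved with the MHC class II list. Its r over 18 libraries was 0.93 with the B cell and 0.97 with the T cell list, and over the 14 it was 0.39 and 0.88. The part of these other cells in the levels of the 10 genes was not tested.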

How the data were processed

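Poly-A RNA from whole-thickness ileum of 18 mice was sequenced by the study. The authors aligned reads with STAR and deposited whole-number read counts per gene from featureCounts (GRCm38), as the submitters' processing notes name them. The described library preparation has no step that marks strand. The deposited tables also hold the authors' CPM, which is the count scaled to the library total, and FPKM, which also divides by gene length and was not used here. The authors' moderated log2 CPM table was deposited too and was not used.

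The genes and lists were chosen with earlier results of these data known. Protein-coding genes above 3 CPM in at least 4 libraries were tested on the counts with edgeR 4.0.16 (TMM scaling, quasi-likelihood test, all 18 libraries in 1 fit, Benjamini-Hochberg adjustment over all genes tested), with sex in a second fit. Unadjusted p-values are those of the same test. Library sizes were the counts on the tested genes. Levels are CPM over all genes, and correlations use log2 CPM with a prior count of 2. Intervals are 95%. Named genes are all 10, in each list the highest and lowest estimates, any adjusted call and ligands or partners, and the genes most alike by r, 10 for the mean and 3 for each gene. Of the genes this rule names, 2 are not reported here. The fit was tested on simulated data. Alternatives were DESeq2 1.42.0, limma-voom (limma 3.58.1), other scalings, filters and covariates, and leaving out each library. Each library counted as 1 mouse. Libraries of a genotype differed from each other by far more than sampling noise (chi-square per degree of freedom at least 22.4). Separately prepared samples would do so in any case, so this value does not decide what a replicate is. Sequences are from RefSeq, and exons from GENCODE on GRCm38.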

Additional observations from a re-analysis of the deposited data

Results flagged for a closer look

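Among the 30 sets of 6 libraries (10 genes in 3 genotypes), 1 held a library far from the others. Cd68 in heterozygous 4 was 28.3 CPM and the next heterozygous mouse 16.0 CPM, a gap of 0.649 of the whole range, which is above Dixon's critical value at 95% for 6 samples. Chance alone flags about 1 in 20 such sets. The same mouse was the highest of its group for 9 of the 10 genes, all but Itgax.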

How the results depend on the processing

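None of the 10 genes passed the adjusted threshold in any of the 118 repeats of the comparisons under other settings. Over all genes, DESeq2's Wald test called 136 in homozygous and 82 in heterozygous mice vs. controls and 9 in homozygous vs. heterozygous mice. Without the 4 libraries rich in B cell markers (an alternative chosen after seeing the data) 30, 15 and 0 were called, and with only the 12 libraries compared 23 in heterozygous mice vs. controls. Of homozygous vs. heterozygous calls, sex as a covariate, no filter, all biotypes, DESeq2 size factors, only the 12 libraries compared and a minimum of 10 counts in each library all left 0, and leaving out 1 library gave 0 to 2. That minimum left 3 calls by sex. With the replicate number as a block 49, 22 and 0 genes were called, and 0 of the 10. The labels give no litter, and likeness between libraries cannot decide whether equal numbers mark paired mice. Between libraries of equal number, r of their deviations was -0.61 to 0.64, above 0.1 in 9 of 18 pairs. No control library was most like its own number in either other genotype, and no heterozygous library was in homozygous mice.

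Estimates for the 10 genes changed sign in 52 of 1180 repeats, none of them called. For Csf1r in homozygous mice vs. controls the log2 fold change was 0.006 with DESeq2 size factors, with the Wald test and with only the 12 libraries compared, 0.008 with all biotypes and 0.056 without the 4 libraries. Adgre1 was -0.013 and C1qc -0.003 with limma-voom, C1qc -0.021 with sex as a covariate, and C1qa 0.039 without the 4 libraries. Without them Cx3cr1 in heterozygous mice vs. controls was -0.000, Itgax in homozygous vs. heterozygous mice 0.090, and the median by sex 0.417. By sex, the replicate block gave -0.003 for Csf1r and -0.061 for Adgre1.

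Leaving out 1 library at a time in homozygous mice vs. controls gave -0.038 to 0.549 for Cd68, -0.156 to 0.100 for Csf1r, -0.154 to 0.203 for Adgre1, -0.145 to 0.093 for C1qa, -0.041 to 0.239 for C1qb, -0.103 to 0.129 for C1qc, -0.026 to 0.347 for Lyz2 and -0.011 to 0.214 for Cx3cr1. In heterozygous mice vs. controls it gave -0.000 to 0.096 for Cx3cr1 and -0.186 to 0.135 for Mrc1. In homozygous vs. heterozygous mice it gave -0.051 to 0.206 for Csf1r, -0.184 to 0.032 for Itgax and -0.051 to 0.174 for Cx3cr1. For Cd68, C1qb and Lyz2 the negative value came without homozygous 3, and for Cx3cr1 without homozygous 4. Other causes were not tested. With counts of at least 307, depth limits these genes less than the spread between mice.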
